A study of Rattus norvegicus with 12 samples.

Results

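The mitosis and spindle checkpoint genes described here are 52 genes that drive a cell through mitosis, with the kinesin motors left out. They were chosen by name from what they are known to do, but with earlier results of these data known, so the choice was not blind to the values. The array carried 42 of them under a probe set with 1 gene symbol, of 14324 genes measured in all. The other 10 (Spc24, Cenpe, Cenpf, Birc5, Anln, Mki67, Ckap2, Espl1, Ncapg and Ncapd2) were not analysed here. The 42 genes had 44 probe sets, since Ccnb2 and Nek2 had 2 each, and both probe sets of each gene gave nearly the same values, so whether they read separate transcripts is uncertain and each pair was averaged.

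Entry into mitosis is driven by the kinase Cdk1 bound to A- and B-type cyclins, and the kinases Plk1, Aurka and Aurkb carry the division forward. Kinetochores join chromosomes to spindle microtubules, and the spindle checkpoint holds the anaphase-promoting complex in check until every kinetochore is attached. The transcripts of these genes are made mostly in G2 and mitosis and are scarce in resting cells, which is why they are widely used as a sign of dividing cells. Heart muscle cells of rats largely stop dividing soon after birth, while fibroblasts, endothelial cells and macrophages in a heart culture can go on dividing.

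The samples were primary cultures of heart cells isolated by enzymatic digestion from Sprague-Dawley rat pups 2 days old, all of the same litter. After 3 days in culture they received, for a further 3 days, 0.1% dimethyl sulphoxide alone (vehicle), or di(2-ethylhexyl) phthalate (DEHP, a plasticiser) at 1, 10 or 50 µg/ml in 0.1% dimethyl sulphoxide. Each of the 4 groups had 3 Affymetrix arrays, 12 in all, which the submitters call biological replicates, so the spread behind each p-value is that between dishes of pups from 1 litter. A culture of this kind can hold several cell types, and in bulk RNA fewer cells of a type and less RNA per cell cannot be told apart. The deposited ratios keep no level per gene, so the presence of defining cardiomyocyte markers could not be checked, nor could a probe set's distance from background.

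Values per array below are log2 ratios of that array to the probe set's own median across all 12 arrays, so 0 is that median. Changes are differences of mean log2 ratios with their standard error from limma, 3 arrays in each group, and a gene was called where the p-value adjusted over all 14324 genes was under 0.05. The direction, array divided by median, was taken as read, since it is not recorded in the sources used here. With the ratio turned, each log2 difference would change its sign and keep its size, and the percentages given for falls would not apply. One array stood apart: the SD of its log2 ratios over all probe sets was 0.17 in replicate 2 at 10 µg/ml, against 0.097 and 0.088 in the other arrays of that dose.

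Many promoters of genes expressed in mitosis are known to carry the cell cycle genes homology region (CHR), bound by the MuvB complexes that repress these genes in resting cells and switch them on in G2, with CCAAT boxes bound by the factor NF-Y placed upstream of it. RefSeq promoter windows (build GRCr8, 250 bases before to 50 after the start, the first window listed for a gene) matched 33 of the 42 genes. The windows of Aurka, Nuf2, Smc2 and Ttk lay wholly inside the annotated gene. The letters TTTGAA or TTCGAA of the CHR, on either strand, were in 26 of these 33 windows (78.8%), against 19.5% of all 27457 windows in the table. The letters CCAAT, on either strand, were also in 26 of the 33 (78.8%), against 37.7% of all windows. Both were present in 22 of 33 (66.7%), against 7.83% of all. The 20 windows of genes that were lower at 50 µg/ml held the CHR letters in 17 cases and CCAAT in 15, and the 13 windows of the other genes in 9 and 11. A neighbouring pair of matches can share a base, and the second form of the CHR reads the same on both strands. A match is a description of the window and not a site.

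**Figure D1:**
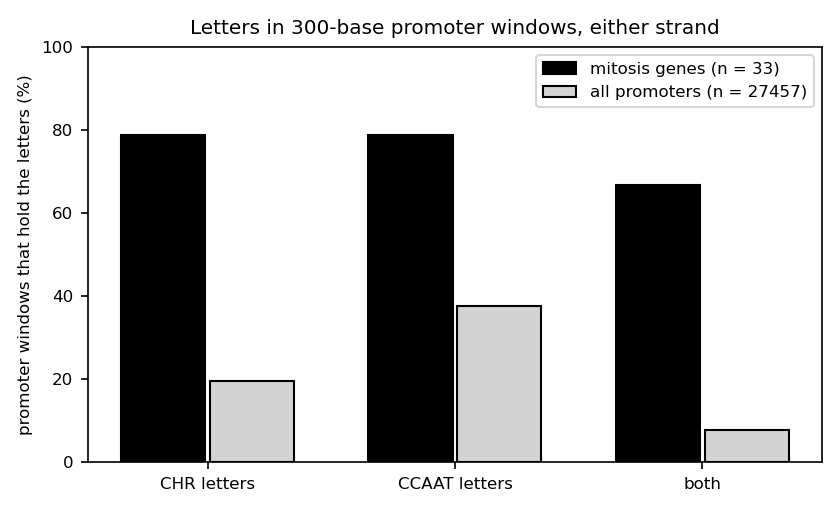
Share of 300-base promoter windows (vertical axis, percent) that hold the CHR letters, the CCAAT letters or both, for the mitosis genes (black, 33 windows) and for all windows of the RefSeq table (grey, 27457 windows). The bars of the mitosis genes stand at 78.8%, 78.8% and 66.7%, and those of all windows at 19.5%, 37.7% and 7.83%.

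Windows are shown for some of the genes on which the results turn, 5′ to 3′ along the gene, with CHR and CCAAT letters of either strand in capitals. Plk1, Cdk1, Prc1 and Cdc20 were lower at 50 µg/ml in every fit that left out 1 array, Ndc80 was higher at 1 µg/ml, and Cks2 was called at no dose. Other genes lower in every such fit are not shown. Of these, the window of Aurka held neither CHR nor CCAAT letters, and that of Bub1b held CHR letters but no CCAAT. The window of Ccnf held both, and Racgap1 and Tpx2 matched no window.
Plk1 (chr1:186147408-186147707, plus strand): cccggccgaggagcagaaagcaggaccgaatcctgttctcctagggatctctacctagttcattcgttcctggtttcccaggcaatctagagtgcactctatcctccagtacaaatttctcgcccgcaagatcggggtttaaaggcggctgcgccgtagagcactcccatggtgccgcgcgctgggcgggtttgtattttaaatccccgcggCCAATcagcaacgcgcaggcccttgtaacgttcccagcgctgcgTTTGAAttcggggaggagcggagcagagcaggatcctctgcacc
Cdk1 (chr20:19265043-19265342, plus strand): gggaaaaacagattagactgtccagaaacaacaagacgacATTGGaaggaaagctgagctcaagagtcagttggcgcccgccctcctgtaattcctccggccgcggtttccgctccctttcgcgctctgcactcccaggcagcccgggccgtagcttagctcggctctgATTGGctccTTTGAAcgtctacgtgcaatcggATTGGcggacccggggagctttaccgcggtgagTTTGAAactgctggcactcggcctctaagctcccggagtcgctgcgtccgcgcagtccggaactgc
Prc1 (chr1:143659231-143659530, plus strand): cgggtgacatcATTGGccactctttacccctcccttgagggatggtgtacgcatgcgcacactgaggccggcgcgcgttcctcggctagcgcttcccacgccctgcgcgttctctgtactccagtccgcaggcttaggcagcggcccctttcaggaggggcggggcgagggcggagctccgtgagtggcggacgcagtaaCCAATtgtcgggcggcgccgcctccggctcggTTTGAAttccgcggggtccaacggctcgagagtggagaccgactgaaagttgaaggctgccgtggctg
Cdc20 (chr5:137255750-137256049, minus strand): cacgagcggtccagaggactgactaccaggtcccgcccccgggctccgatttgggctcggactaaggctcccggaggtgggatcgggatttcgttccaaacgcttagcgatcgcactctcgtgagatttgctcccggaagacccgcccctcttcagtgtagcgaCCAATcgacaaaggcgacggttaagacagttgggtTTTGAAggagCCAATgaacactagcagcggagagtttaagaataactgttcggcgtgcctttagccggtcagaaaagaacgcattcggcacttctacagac
Ndc80 (chr9:118887480-118887779, minus strand): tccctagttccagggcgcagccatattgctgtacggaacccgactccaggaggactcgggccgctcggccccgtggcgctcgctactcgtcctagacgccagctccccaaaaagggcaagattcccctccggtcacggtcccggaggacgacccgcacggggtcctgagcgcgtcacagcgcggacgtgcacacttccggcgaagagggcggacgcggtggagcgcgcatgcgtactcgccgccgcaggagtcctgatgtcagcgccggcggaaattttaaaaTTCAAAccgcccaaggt
Cks2 (chr17:13727470-13727769, minus strand): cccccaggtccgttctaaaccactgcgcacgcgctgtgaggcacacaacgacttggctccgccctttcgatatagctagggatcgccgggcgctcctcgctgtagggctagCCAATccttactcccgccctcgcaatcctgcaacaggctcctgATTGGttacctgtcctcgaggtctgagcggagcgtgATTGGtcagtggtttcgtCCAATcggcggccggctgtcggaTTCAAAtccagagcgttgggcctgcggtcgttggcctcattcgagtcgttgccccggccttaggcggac
Positions count from 0 at the start that each window was built on. In Cdk1, Prc1 and Ndc80 the annotated gene begins upstream of that start. The CHR letters nearest the start began at -16 in Cdk1, -18 in Prc1, -19 in Cks2 and -51 in Cdc20, each with CCAAT letters further upstream. In Plk1 they began at 6, with 1 CCAAT at -38. Ndc80 held the CHR letters at 33 and no CCAAT in this window. Cks2, called at no dose, had 1 match to the CHR and 4 to CCAAT. The CHR letters nearest the start in Cdk1 and Prc1 lie inside the annotated gene.

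At 50 µg/ml most of the mitosis genes were lower. Of the 42 genes, 28 were lower than in the vehicle (66.7%), 0 were higher and 14 did not pass, where 8.84% of all genes were lower. The median difference was -0.30, against 0.018 over all genes, and 41 of the 42 differences were below 0 (43.0% of all genes). In 33 of the 42 all 3 treated arrays lay below all 3 vehicle arrays, as they did in 16.5% of all genes. The called falls were of modest size, with log2 differences of -0.19 to -0.61. In the same cultures 26 of 29 macrophage markers were lower, with a median of -1.02, and their part in the fall of the mitosis genes was not tested.

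**Figure D2:**
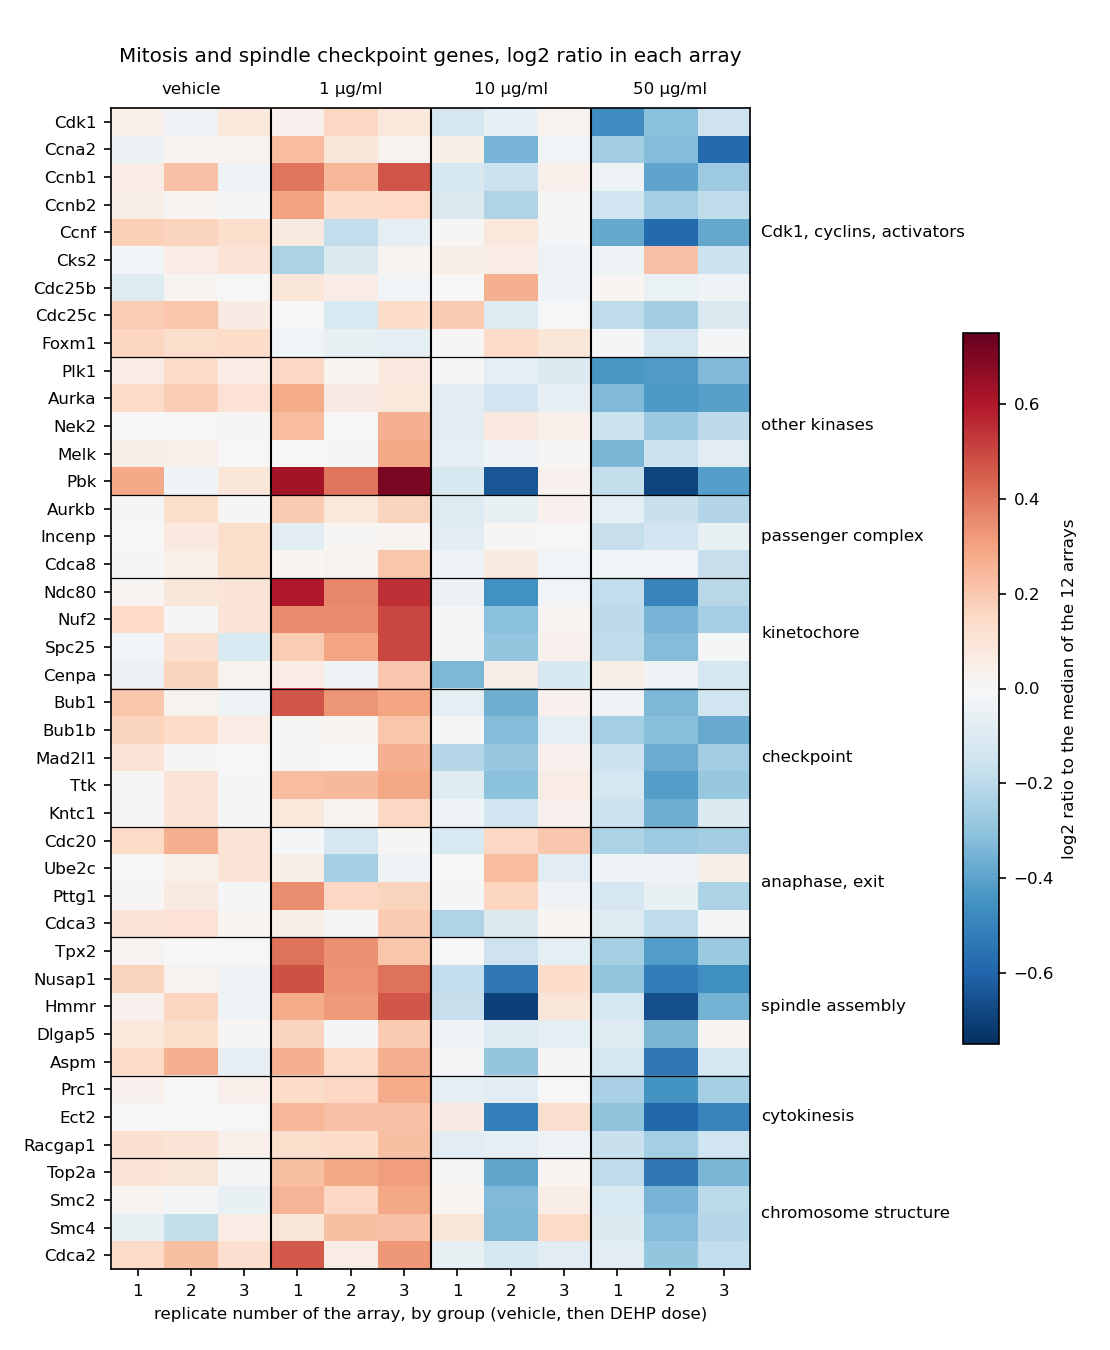
Log2 ratio of each of the 42 genes (rows, grouped by role) in each of the 12 arrays (columns, 3 per group), blue below and red above the median of the 12 arrays. The 50 µg/ml columns are mostly blue, with medians over the genes of -0.16, -0.32 and -0.21, the 1 µg/ml columns mostly red (0.18, 0.083 and 0.21), and replicate 2 at 10 µg/ml is bluer than the other arrays of its dose.

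Among Cdk1, its cyclins and activators, 7 of 9 genes were lower at 50 µg/ml. Ccnf, the cyclin-like F-box subunit of a ubiquitin ligase, had the largest fall of all 42 genes. It stood at -0.38, -0.58 and -0.38 in the 50 µg/ml arrays, against 0.18, 0.17 and 0.13 in the vehicle arrays, with no overlap. At 50 µg/ml its mean fell by 34.5% (-0.61 ± 0.069, adjusted p = 5.77e-05). Cdk1 itself, the kinase of mitotic entry, stood at -0.46, -0.32 and -0.15 in the 50 µg/ml arrays, against 0.036, -0.024 and 0.080 in the vehicle arrays (-0.34 ± 0.073, adjusted p = 0.00557), again without overlap. The cyclins Ccna2 (-0.39 ± 0.10, adjusted p = 0.0204), Ccnb1 (-0.31 ± 0.10, adjusted p = 0.0409) and Ccnb2 (-0.22 ± 0.064, adjusted p = 0.035) were also lower, as was Cdc25c, a phosphatase that activates Cdk1 (-0.34 ± 0.082, adjusted p = 0.0125). In Ccnb1 1 treated array, at -0.037, lay above the lowest vehicle array, at -0.041.

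The exceptions in this group were Cks2, a small Cdk-binding subunit, and Cdc25b, the phosphatase that starts Cdk1 activation. Cdc25b was the gene of the 42 with the smallest change, at 0.015, -0.048 and -0.027 in the 50 µg/ml arrays, against -0.10, 0.019 and 0.0043 in the vehicle arrays (0.0049 ± 0.071, adjusted p = 0.975), and its groups overlapped. Cks2 stood at -0.036, 0.22 and -0.16 in the 50 µg/ml arrays, against -0.020, 0.053 and 0.10 in the vehicle arrays, with a difference of -0.039 ± 0.089. One treated array was the highest of the 12. Foxm1, the transcription factor that activates many G2 and mitosis genes together with MuvB, was lower (-0.19 ± 0.050, adjusted p = 0.0179), and its 50 µg/ml arrays of -0.0085, -0.13 and -0.0073 all lay below its vehicle arrays of 0.16, 0.13 and 0.14.

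Of the other mitotic kinases 4 of 5 were lower. Plk1, which acts from mitotic entry to cytokinesis, and Aurka, the centrosome and spindle pole kinase, come first here. Plk1 stood at -0.44, -0.42 and -0.33 in the 50 µg/ml arrays, against 0.055, 0.15 and 0.058 in the vehicle arrays (-0.48 ± 0.053, adjusted p = 4.58e-05). Aurka stood at -0.33, -0.43 and -0.41 in the 50 µg/ml arrays, against 0.15, 0.18 and 0.11 in the vehicle arrays (-0.54 ± 0.059, adjusted p = 5.05e-05). Neither overlapped with the vehicle. Pbk, a kinase active in mitosis, had the largest mean difference of the group and a wide spread, at -0.18, -0.69 and -0.42 in the 50 µg/ml arrays, against 0.29, -0.033 and 0.090 in the vehicle arrays (-0.54 ± 0.16, adjusted p = 0.0385). Nek2, a kinase of centrosome separation, changed least, at -0.16, -0.28 and -0.20 in the 50 µg/ml arrays, against -0.0037, -0.0032 and 0.011 in the vehicle arrays (-0.21 ± 0.068, adjusted p = 0.0472), and Melk did not pass at -0.22 ± 0.079 although its groups did not overlap.

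The chromosomal passenger complex, which corrects faulty attachments through the kinase Aurkb, had 2 of 3 measured genes lower. Aurkb stood at -0.065, -0.17 and -0.22 in the 50 µg/ml arrays, against -0.0082, 0.13 and 0.0082 in the vehicle arrays (-0.19 ± 0.059, adjusted p = 0.0393), and the scaffold Incenp was lower by nearly the same amount (-0.19 ± 0.054, adjusted p = 0.0267). Cdca8, which encodes borealin, stood at -0.018, -0.019 and -0.17 in the 50 µg/ml arrays, against -0.013, 0.039 and 0.13 in the vehicle arrays and did not pass (-0.12 ± 0.066). The treated arrays of all 3 genes lay below the vehicle arrays.

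Of 4 measured kinetochore and centromere genes 2 were lower, both of them microtubule-binding subunits of the Ndc80 complex: Ndc80, at -0.19, -0.49 and -0.21 in the 50 µg/ml arrays, against 0.018, 0.086 and 0.10 in the vehicle arrays (-0.36 ± 0.11, adjusted p = 0.0434), and Nuf2, at -0.20, -0.35 and -0.25 in the 50 µg/ml arrays, against 0.15, -0.016 and 0.10 in the vehicle arrays (-0.34 ± 0.084, adjusted p = 0.0126). Their partner Spc25 (-0.17 ± 0.11) and the centromeric histone variant Cenpa (-0.086 ± 0.094) did not pass. Cenpa stood at 0.045, -0.024 and -0.13 in the 50 µg/ml arrays, against -0.041, 0.17 and 0.024 in the vehicle arrays, so 1 treated array was above 2 vehicle arrays. Of the 5 checkpoint genes 4 were lower. Bub1b, which encodes the checkpoint inhibitor BubR1, stood at -0.26, -0.32 and -0.38 in the 50 µg/ml arrays, against 0.17, 0.15 and 0.055 in the vehicle arrays (-0.44 ± 0.080, adjusted p = 0.00207), a clear separation. Mad2l1 (-0.30 ± 0.090, adjusted p = 0.0356), the kinase Ttk (-0.31 ± 0.087, adjusted p = 0.0289) and Kntc1, a subunit that brings dynein to kinetochores (-0.24 ± 0.071, adjusted p = 0.0322), were lower by similar amounts. The kinase Bub1 stood at -0.026, -0.34 and -0.15 in the 50 µg/ml arrays, against 0.21, 0.026 and -0.038 in the vehicle arrays and did not pass (-0.24 ± 0.11), with its groups overlapping.

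Of the 4 measured genes of anaphase and mitotic exit 1 was lower. Cdc20, the activator of the anaphase-promoting complex that the checkpoint restrains, stood at -0.24, -0.28 and -0.26 in the 50 µg/ml arrays, against 0.14, 0.27 and 0.10 in the vehicle arrays, so its mean at 50 µg/ml fell by 25.6% (-0.43 ± 0.076, adjusted p = 0.00182). The treated arrays were close together. Ube2c, the ubiquitin-conjugating enzyme of the same complex, stood at -0.035, -0.028 and 0.044 in the 50 µg/ml arrays, against 0.0019, 0.041 and 0.10 in the vehicle arrays and did not pass (-0.055 ± 0.085). The securin gene Pttg1 (-0.16 ± 0.070) and Cdca3, a mitotic entry factor (-0.17 ± 0.073), did not pass either, though in both the groups did not overlap. Because these calls were not compared between role groups, no role is shown to differ from another.

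Of 5 spindle assembly genes 3 were lower, all of 3 cytokinesis genes, and 2 of 4 chromosome structure genes. Nusap1, a microtubule-bundling protein near chromosomes, stood at -0.30, -0.52 and -0.46 in the 50 µg/ml arrays, against 0.17, 0.027 and -0.027 in the vehicle arrays (-0.48 ± 0.13, adjusted p = 0.0206). Tpx2, which activates Aurka on the spindle, stood at -0.25, -0.42 and -0.28 in the 50 µg/ml arrays, against 0.022, 0.0037 and 0.0046 in the vehicle arrays (-0.32 ± 0.062, adjusted p = 0.00304), with the 3 vehicle arrays almost equal. Aspm, a spindle pole protein, was lower (-0.38 ± 0.12, adjusted p = 0.0403). Hmmr, a spindle protein also known as a hyaluronan receptor, had a difference of -0.43 ± 0.17 with a wider spread and did not pass, although its groups did not overlap. Dlgap5, a kinetochore fibre protein, stood at -0.10, -0.34 and 0.012 in the 50 µg/ml arrays, against 0.077, 0.13 and 0.0075 in the vehicle arrays and did not pass (-0.21 ± 0.082), with 1 treated array above the lowest vehicle array.

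The cytokinesis genes lie in 1 pathway. Ect2, the exchange factor that activates RhoA at the division plane, stood at -0.30, -0.59 and -0.49 in the 50 µg/ml arrays, against -0.0020, 0.0020 and -0.0020 in the vehicle arrays (-0.46 ± 0.13, adjusted p = 0.0267). Its vehicle arrays were nearly equal and its treated arrays all lower. Racgap1, its partner on the central spindle, had a smaller and more even fall, at -0.17, -0.26 and -0.15 in the 50 µg/ml arrays, against 0.11, 0.10 and 0.039 in the vehicle arrays (-0.27 ± 0.047, adjusted p = 0.00136). Prc1, the bundler of central spindle microtubules, stood at -0.24, -0.45 and -0.25 in the 50 µg/ml arrays, against 0.031, 0.0014 and 0.041 in the vehicle arrays (-0.34 ± 0.061, adjusted p = 0.00192). Among chromosome structure genes the topoisomerase Top2a stood at -0.19, -0.54 and -0.34 in the 50 µg/ml arrays, against 0.10, 0.091 and -0.014 in the vehicle arrays (-0.42 ± 0.10, adjusted p = 0.0138), and Cdca2, a phosphatase-targeting subunit on anaphase chromosomes, was lower (-0.35 ± 0.086, adjusted p = 0.0137). The condensin subunits Smc2 (-0.20 ± 0.091) and Smc4 (-0.15 ± 0.11) did not pass. Smc4 stood at -0.10, -0.32 and -0.21 in the 50 µg/ml arrays, against -0.057, -0.18 and 0.057 in the vehicle arrays, with 1 vehicle array below 1 treated array.

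The count of genes called lower depended on single arrays. It was 12 without vehicle replicate 1, 12 without vehicle replicate 2, 16 without vehicle replicate 3, 10 without 50 µg/ml replicate 2 and 18 without 50 µg/ml replicate 3 (17 of the 28, and Dlgap5), each fit having 1 group of 2 arrays. Replicate 2 at 50 µg/ml held the lowest value of all 12 arrays in 24 of the 42 genes. The calls of Aurka, Bub1b, Ccnf, Cdc20, Cdk1, Plk1, Prc1, Racgap1 and Tpx2, 9 genes, were kept in all 12 fits that left out 1 array. The median over the 42 genes lay between -0.24 and -0.32 in these fits.

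**Figure D3:**
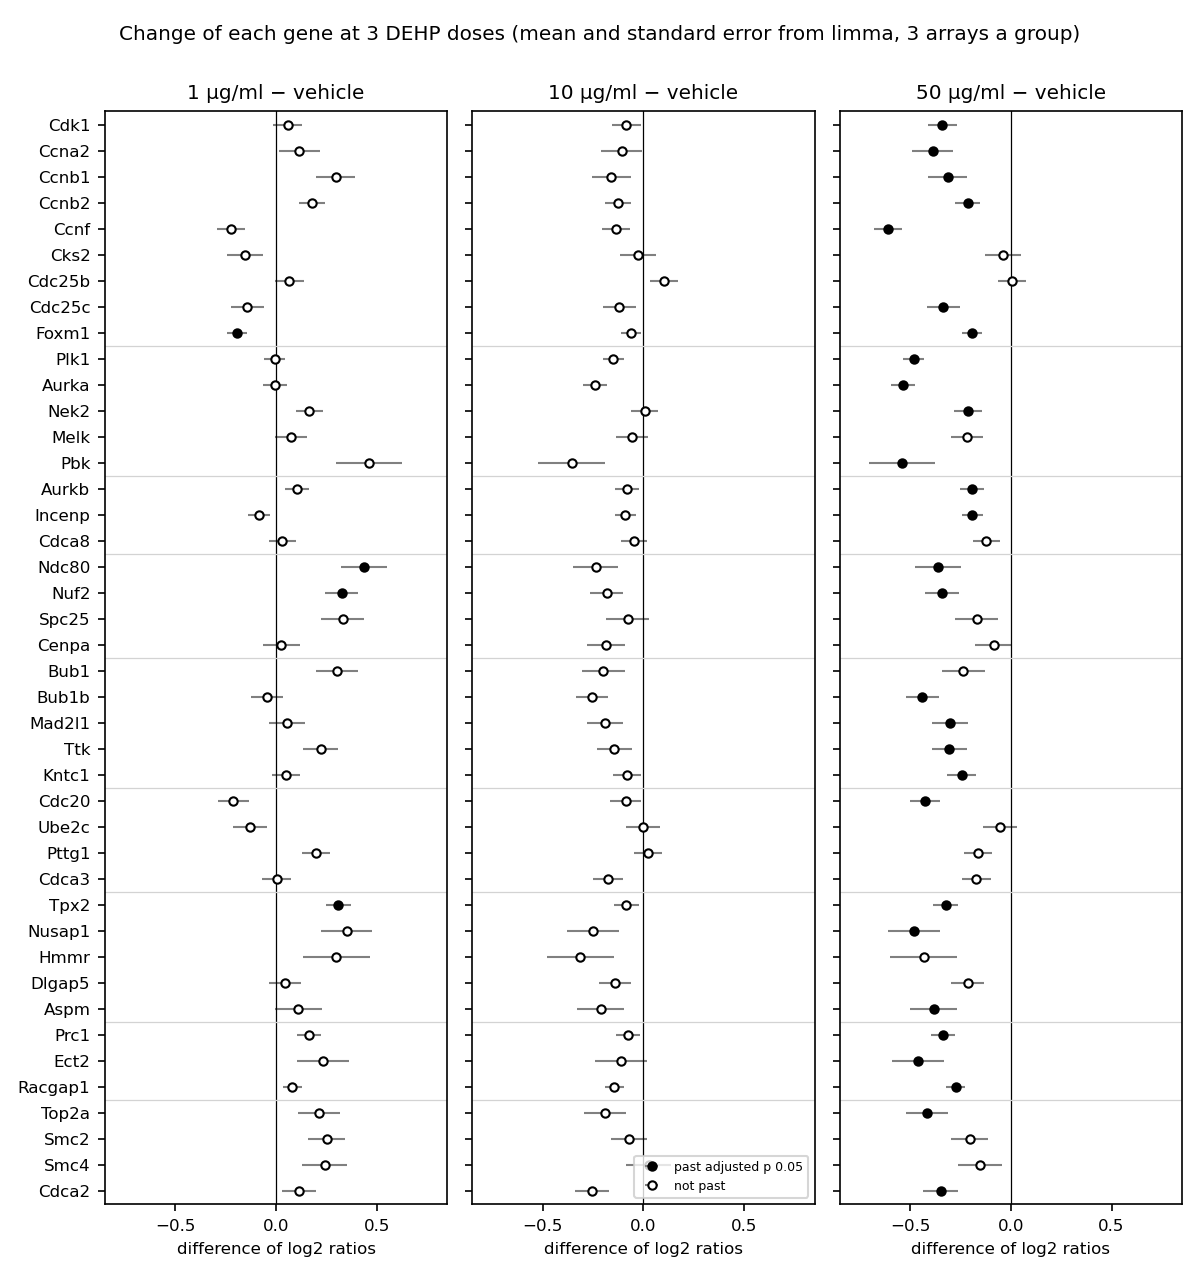
Difference of mean log2 ratios from the vehicle (horizontal axis, point and standard error from limma) for the 42 genes at 1, 10 and 50 µg/ml, filled where the adjusted p was under 0.05. Filled points number 4 at 1 µg/ml, 0 at 10 µg/ml and 28 at 50 µg/ml, where only the point of Cdc25b lies above 0.

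At 1 µg/ml the genes did not follow the same direction. Of the 42, 32 had a mean above that of the vehicle (48.2% of all genes did) and the median difference was 0.11, against -0.0034 over all genes. Only 3 genes were called higher (7.14%, where 2.51% of all genes were) and 1 lower (2.38%, where 1.74% of all genes were). The unadjusted p was under 0.05 in 18 genes (42.9%), against 20.2% of all genes. In 18 of the 42 the 1 µg/ml arrays all lay above the vehicle arrays, as in 16.7% of all genes. The macrophage markers had a median of -0.19 at this dose, and their part was not tested.

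The 3 genes called higher work at the spindle and kinetochore. Tpx2 stood at 0.40, 0.34 and 0.21 in the 1 µg/ml arrays, against 0.022, 0.0037 and 0.0046 in the vehicle arrays (0.31 ± 0.062, adjusted p = 0.0188). Ndc80 stood at 0.60, 0.36 and 0.55, against 0.018, 0.086 and 0.10 in the vehicle arrays (0.44 ± 0.11, adjusted p = 0.0496), and Nuf2 at 0.36, 0.36 and 0.50, against 0.15, -0.016 and 0.10 in the vehicle arrays (0.33 ± 0.084, adjusted p = 0.0488). No array of the 1 µg/ml group overlapped with the vehicle in these genes. Pbk had the largest difference, 0.46 ± 0.16, from arrays at 0.62, 0.40 and 0.71 at 1 µg/ml, but did not pass (adjusted p = 0.133).

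Foxm1 was the 1 gene called lower at 1 µg/ml. It stood at -0.018, -0.057 and -0.076, against 0.16, 0.13 and 0.14 in the vehicle arrays (-0.19 ± 0.050, adjusted p = 0.0475), a difference close to that at 50 µg/ml (-0.19 ± 0.050). Between 50 and 1 µg/ml Foxm1 differed by 0.0033 ± 0.050. Ccnf (-0.22 ± 0.069) and Cdc20 (-0.21 ± 0.076) also had all 3 arrays below the vehicle at 1 µg/ml, without passing. Plk1 (-0.0062 ± 0.053) and Aurka (-0.0067 ± 0.059) stood close to the vehicle.

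The 1 µg/ml calls were not steady. With any 1 array of the vehicle or of the 1 µg/ml group left out, 0 or 1 of the 42 genes passed, the 1 being without 1 µg/ml replicate 3. Without 10 µg/ml replicate 2, which enters only the estimate of the spread, 10 genes passed, 9 higher and 1 lower, and a fit restricted to the 1 µg/ml and vehicle arrays passed 16, 14 higher and 2 lower. The count was 2 without 10 µg/ml replicate 1, 1 without 50 µg/ml replicate 1 and 1 without 50 µg/ml replicate 3. The median over the 42 genes stayed above 0 in these fits, between 0.085 and 0.14. A quantile normalization of the log2 ratios gave a median of 0.056.

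**Figure D4:**
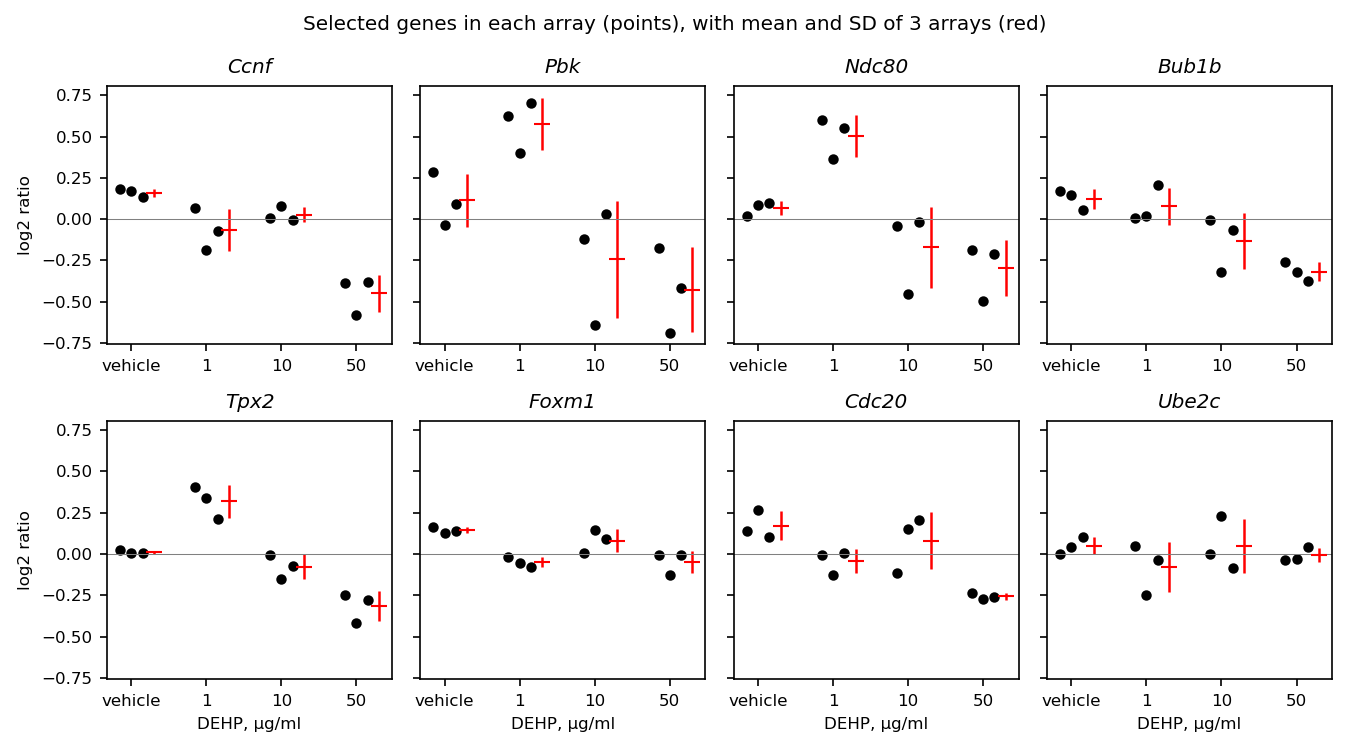
Log2 ratio in each array (black points) for Ccnf, Pbk, Ndc80, Bub1b, Tpx2, Foxm1, Cdc20 and Ube2c, by vehicle and DEHP dose, with the mean and SD of the 3 arrays in red. Pbk, Ndc80 and Tpx2 are highest at 1 µg/ml, Foxm1 is lower than the vehicle at both 1 and 50 µg/ml, and Ube2c overlaps across groups.

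At 10 µg/ml no gene was called. The percentage of all genes called was 0 as well, and the unadjusted p was under 0.05 in 8 of the 42 genes (19.0%), against 6.28% of all genes. The means of 38 of the 42 genes lay below the vehicle (53.5% of all genes did), with a median difference of -0.12, and in 10 genes (23.8%) the 10 µg/ml arrays all lay below the vehicle arrays, against 6.22% of all genes. The smallest unadjusted p was that of Aurka (-0.24 ± 0.059, adjusted p = 0.427), with 10 µg/ml arrays at -0.083, -0.14 and -0.059, against 0.15, 0.18 and 0.11 in the vehicle arrays. These did not overlap. At this dose the macrophage markers had a median of -0.16, with 25 of 29 below 0 and 8 at an unadjusted p under 0.05, and the cardiomyocyte markers a median of 0.17, with 20 of 21 above 0 and 11 at an unadjusted p under 0.05. None of them was called. Their part in the values of the mitosis genes was not tested.

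Replicate 2 at 10 µg/ml had a median over the 42 genes of -0.13, against -0.039 and 0.0088 in replicates 1 and 3. In it Hmmr stood at -0.70, Pbk at -0.64, Nusap1 at -0.53, Ect2 at -0.51 and Ndc80 at -0.45, while Cdc25b (0.27), Ube2c (0.23), Pttg1 (0.16) and Cdc20 (0.15) stood above 0. The same genes in replicates 1 and 3 lay between -0.19 and 0.20, and Cdc20 was higher in replicate 3 (0.20) than in replicate 2. Replicate 2 at 50 µg/ml was also low in Hmmr (-0.66), Pbk (-0.69), Nusap1 (-0.52), Ect2 (-0.59) and Ndc80 (-0.49). In that array Cdc25b (-0.048), Ube2c (-0.028), Pttg1 (-0.056) and Cdc20 (-0.28) lay below 0. Over all genes, deviations from the group means correlated at 0.43 between these arrays, and at up to 0.49 between arrays of other numbers. What these arrays share was not tested. The median difference between 10 µg/ml and the vehicle was -0.081 without replicate 2 at 10 µg/ml.

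The comparison of 50 with 1 µg/ml gave the most calls. Of the 42 genes 32 were lower at 50 µg/ml (76.2%, where 13.4% of all genes were) and 0 higher, with a median of -0.40. The groups did not overlap in 33 genes (78.6%), as they did in 19.5% of all genes. Pbk had the largest difference (its mean fell by 50.1%, adjusted p = 0.00104), followed by Nusap1 (-0.83 ± 0.13, adjusted p = 0.000707) and Ndc80 (-0.80 ± 0.11, adjusted p = 0.000374). Tpx2 had the smallest p (-0.63 ± 0.062, adjusted p = 2.42e-05). The count lay between 28 and 33 with any 1 array left out, and 28 of the 32 genes kept their call in all 12 of these fits.

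The genes called in this comparison were not exactly those called against the vehicle. In both were 24 genes. Lower at 50 than at 1 µg/ml, but not past the threshold against the vehicle, were Bub1, Dlgap5, Hmmr, Melk, Pttg1, Smc2, Smc4 and Spc25. Lower against the vehicle, but not past the threshold against 1 µg/ml, were Cdc20, Cdc25c, Foxm1 and Incenp, which had means at 1 µg/ml below those of the vehicle. Both comparisons share the 50 µg/ml arrays.

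Neighbouring doses were also compared. At 50 against 10 µg/ml 8 genes were lower (19.0%, where 6.85% of all genes were) and 0 higher: Cdk1, Ccnf, Plk1, Aurka, Nek2, Cdc20, Tpx2 and Prc1. Ccnf differed by -0.48 ± 0.069 and Plk1 by -0.33 ± 0.053. The count was 17 without 10 µg/ml replicate 2, 5 without 10 µg/ml replicate 3 and 5 without 50 µg/ml replicate 2. At 10 against 1 µg/ml 17 genes were lower (40.5%, where 9.20% of all genes were) and 0 higher. Pbk (-0.82 ± 0.16) and Ndc80 (-0.68 ± 0.11) differed most, and the count was 9 without 10 µg/ml replicate 2 and 9 without 1 µg/ml replicate 3.

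The order of the group means was shared by most genes. In 26 of the 42 the means ran, from high to low, 1 µg/ml, vehicle, 10 µg/ml and 50 µg/ml. The 50 µg/ml mean was the lowest of the 4 in 36 genes, and the 1 µg/ml mean the highest in 31. In Ccnf, Cdc20 and Cdc25c the vehicle was highest and 1 µg/ml lay between 10 and 50 µg/ml, and in Foxm1, Cks2 and Ube2c the 1 µg/ml mean was the lowest. These orders are of means, and neighbouring doses passed the test only in the genes counted above. The SD of the 3 arrays had a median over genes of 0.058 in the vehicle, 0.10 at 1 µg/ml, 0.13 at 10 µg/ml and 0.11 at 50 µg/ml.

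Other genes of the cell division machinery are given from lists made apart from the 42. At 50 µg/ml 8.84% of all genes were lower. Of 10 mitotic kinesins, the motors of the spindle, 8 were lower at 50 µg/ml and 0 higher (median -0.31), with Kif23 of cytokinesis at -0.32 ± 0.056 and Kif2c of the centromere at -0.40 ± 0.073. Of 34 further kinetochore, condensin and spindle genes 16 were lower and 0 higher (median -0.25), among them the condensin subunit Ncapd3 at -0.44 ± 0.062. Of 40 DNA replication and G1/S genes 17 were lower and 0 higher (median -0.19), with the replication factor Gins3 at -0.59 ± 0.069 and the ribonucleotide reductase subunit Rrm2 at -0.51 ± 0.070. At 1 µg/ml these 3 lists had medians of 0.11, 0.093 and 0.019. The difference between these lists and the mitosis genes was not tested.

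Regulators of division are given from 5 further lists. Beside them, 8.84% of all 14324 genes were lower at 50 µg/ml and 1254 genes were higher. Of 15 genes of the anaphase-promoting complex and its partners 3 were lower at 50 µg/ml (median -0.10), among them the complex's inhibitor Fbxo5 (-0.66 ± 0.14). Of 7 cohesin genes 2 were lower (median -0.18). Of 13 E2F, Myb and MuvB genes 1 was lower, near the share over all genes (median -0.12), the gene being Mybl1 (-0.61 ± 0.093). Cell cycle inhibitors went both ways, 4 of 15 higher and 3 lower (median -0.0083), with the largest change a fall of -0.73. The 2 with the smallest p were both higher, Cdkn1c, which encodes the Cdk inhibitor p57, by 0.53 ± 0.052 and the growth arrest gene Gadd45a by 0.67 ± 0.076. At 1 µg/ml Gadd45a was higher by 0.33 (adjusted p = 0.0326). Among 7 G1 cyclins and kinases 2 were lower, with Cdk6 at -0.25 ± 0.048, and 1 was higher.

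Markers of the cell types that such cultures can hold moved alongside. Of all 14324 genes, 1254 were higher at 50 µg/ml and 1266 lower (8.84%). At 1 µg/ml 2.51% of all genes were higher and 1.74% lower. Macrophage markers had array medians of -0.68, -0.77 and -0.68 at 50 µg/ml, against 0.13, 0.21 and 0.16 in the vehicle, with 26 of 29 lower and 0 higher. At 1 µg/ml their array medians were 0.10, 0.045 and -0.17 and at 10 µg/ml -0.067, 0.11 and 0.0032. Endothelial markers were higher at 50 µg/ml in 6 of 12 genes and lower in 1 (median 0.25), and at 1 µg/ml 3 of 12 were lower and 0 higher (median -0.25). Cardiomyocyte markers were higher at 50 µg/ml in 12 of 21 genes and lower in 1 (median 0.23).

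At 50 µg/ml 2 of 20 fibroblast markers were higher, near the share over all genes, and 6 were lower (median -0.060). Smooth muscle and pericyte markers had 2 of 10 higher and 4 lower (median -0.079). Epicardial markers were higher in 4 of 9 genes and lower in 0 (median 0.25). At 1 µg/ml, where most mitosis genes had means above the vehicle, no marker list but that of cardiomyocytes had a gene called higher, and that list had 1 of 21. Lower at that dose were 3 of 29 macrophage and 3 of 20 fibroblast markers, beside the endothelial ones. The part of any of these cell types in the values of the mitosis genes was not tested, and the ratios do not show which markers were near background.

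**Figure D5:**
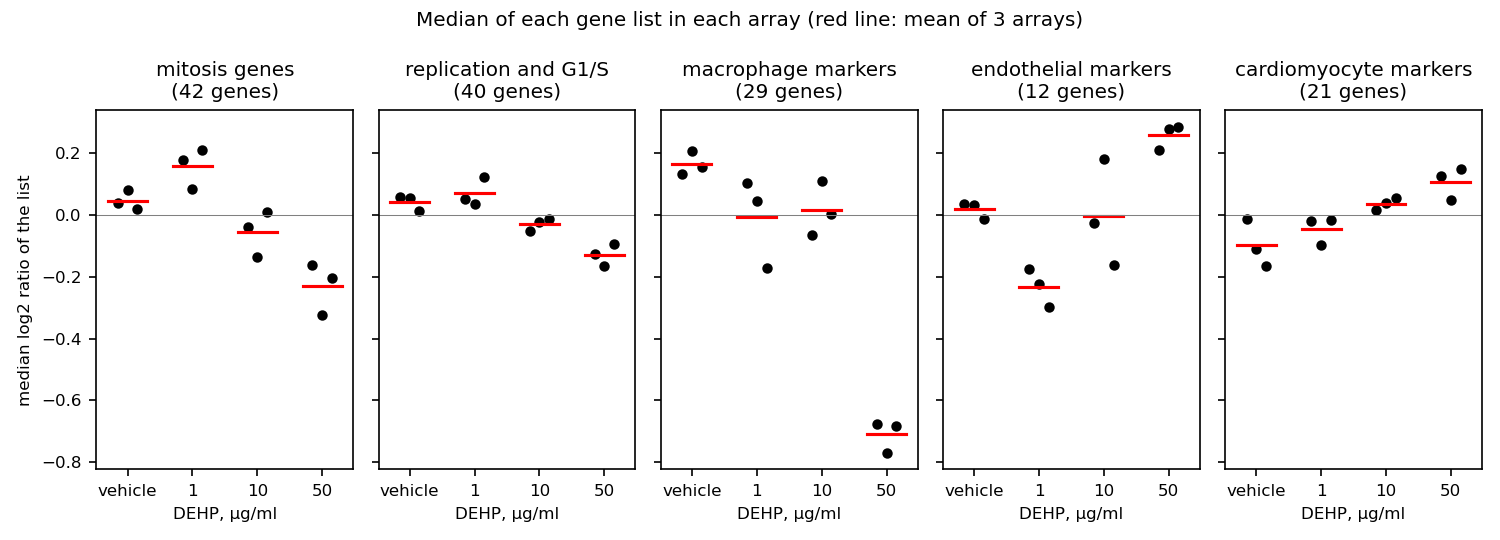
Median log2 ratio of 5 gene lists in each array (points, with the mean of 3 arrays in red), by vehicle and DEHP dose. The mitosis genes are highest at 1 µg/ml and lowest at 50 µg/ml, the macrophage markers lie between -0.68 and -0.77 at 50 µg/ml, and the endothelial markers lie between -0.18 and -0.30 at 1 µg/ml and between 0.21 and 0.29 at 50 µg/ml.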

How the data were processed

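Gene expression was measured on 12 Affymetrix arrays. RMA is the method that the submitters' processing notes name, with its version not given in the sources used here. What the authors deposited is a linear ratio per probe set and array, to that probe set's median across arrays. This was found from the values: the midpoint of the 2 middle log2 values lay within 1e-06 of 0 for all 27342 probe sets. Level, detection and background were thereby lost, and the direction of the ratio is unrecorded.

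Ratios were turned to log2, and a gene is the mean of its probe sets with exactly 1 symbol in the platform annotation (15097 probe sets, 14324 genes). The fit across all genes, by limma 3.58.1 (R 4.3.3), had 1 mean for each of the 4 groups (8 residual degrees of freedom, constant prior variance), with two-sided tests, Benjamini-Hochberg adjustment over all genes and a threshold of 0.05. With 3 arrays a side the smallest two-sided p of an exact permutation test is 0.1. The number of arrays limits the precision. The fit was tested on simulated data with independent normal noise and no array effects. That test does not cover an array that stands apart or arrays whose deviations correlate. The members and gene lists were chosen with earlier results of these data known.

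Values per array are given for the gene with the largest and the smallest change at 50 µg/ml in each of 9 role groups and for those called at 1 or 10 µg/ml. Those of Cdk1, Cks2, Plk1, Aurka, Prc1 and Ccnb1 were added after their values were seen, as were the genes given for 10 µg/ml replicate 2. Other lists give counts, medians and genes among the 2 with the smallest p. Alternatives were a quantile normalization of the log2 ratios, centring of arrays, robust moderation, array weights, fits restricted to both groups of a comparison, a replicate block, another summary of probe sets, a minimum change of 0.2 and the omission of each array. The quantile normalization acted on ratios per gene, not on intensities, and gave all arrays the same distribution. Before it, the SD over all probe sets was 0.087 in vehicle replicate 1 and 0.20 in replicate 2 at 50 µg/ml. Promoter windows came from RefSeq (GRCr8).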

Additional observations from a re-analysis of the deposited data

How the results depend on the processing

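Counts of the 42 genes called stayed within 1.5 times at 50 µg/ml against the vehicle (20 to 31, against 28) and at 50 against 1 µg/ml (30 to 33, against 32) in the 8 alternatives that left out no array. The quantile normalization of the log2 ratios gave 1 call at 10 µg/ml, against 0, and 3 at 50 against 10 µg/ml, against 8. At 1 µg/ml, against 4, centring of arrays gave 2, robust moderation 1, array weights 14 and the compared groups alone 16. At 50 against 10 µg/ml array weights gave 13, which held only 5 of the 8 genes called in the main fit, and the compared groups alone gave 4. At 10 against 1 µg/ml the compared groups alone gave 7, against 17. The cause of these shifts was not tested.

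With 1 array left out, the counts ran from 10 to 30 at 50 µg/ml, from 0 to 0 at 10 µg/ml and from 0 to 10 at 1 µg/ml against the vehicle, from 5 to 17 at 50 against 10, from 28 to 33 at 50 against 1 and from 9 to 21 at 10 against 1 µg/ml. Of 420 refits of 21 single genes at 50 µg/ml, 366 stayed on the same side of the threshold, 53 lost a call and 1, of Dlgap5, gained one, and no called change turned its sign.

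Whether the replicate numbers pair the arrays was not settled. Deviations from the group means correlated at -0.23 to 0.43 between arrays of the same number, over 0.1 in 6 of 18 pairs. Between arrays of other numbers they correlated at -0.48 to 0.49, over 0.1 in 10 of 36 pairs. Of 12 arrays, 5 correlated best with their own number. With 3 arrays a group, these correlations cannot exclude a pairing. With the replicate block 32 genes were called at 50 against 1, 7 at 50 against 10 and 17 at 10 against 1 µg/ml, and against the vehicle 26 at 50 µg/ml, 0 at 10 µg/ml and 4 at 1 µg/ml, all 4 of them higher, against 3 higher and Foxm1 lower without it.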
